A study of Mus musculus with 43 samples.

Results

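The *Egr* and *Nr4a* early transcription factors, with *Arc* and *Npas4*, are 9 genes that were picked by symbol from the 54532 genes counted in laser-treated mouse retina. All 9 had a row in the count table. All 9 passed the filter on low counts, which left 18197 genes for testing. Their selection used the difference between SCFA-treated and control retinas, within each sex and day and within each run of columns of the table. Values for that difference are therefore a description and carry no test.

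Immediate early genes are transcribed within minutes of a stimulus from factors that are already present in the cell, before any new protein is made. In neurons the stimulus is often membrane depolarization and calcium entry, which reach the genes through SRF with its ELK partners, and through CREB on cAMP response elements. *Egr1* to *Egr4* encode zinc finger factors that bind GC-rich sites, and the NAB corepressors hold back EGR1, EGR2 and EGR3. *Nr4a1* to *Nr4a3* encode orphan nuclear receptors that act without a classical ligand, and NR4A1 and NR4A2 also pair with RXR. *Npas4* encodes a bHLH-PAS factor induced by calcium, and *Arc* an effector of the postsynapse. In retina, EGR1 is known as a marker of light-driven activity, in amacrine cells among others.

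The 43 libraries came from C57BL/6J mice that were lasered at 9 weeks of age to induce choroidal neovascularization (CNV). Each was a pool of 2 retinas from different animals of 1 group, taken at 3, 7 or 14 days post laser (dpl). Controls (19 libraries) had the laser lesion alone. SCFA animals (24 libraries) also drank water with short-chain fatty acids (67.5 mM acetate, 40 mM propionate and 25 mM butyrate, although the g/L values given for the last pair do not match their mM values), from before the laser until collection. Sex and day define 6 strata, called M3, M7, M14, F3, F7 and F14, with 3 to 5 libraries per arm. All 12 groups had the lesion.

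Libraries held between 14826957 and 21507527 counts (median 17683615), and 3 counts, taken as the floor, corresponded to between 0.1395 and 0.2023 CPM of the deposited totals. Levels are given as CPM, the count relative to the library's total after scaling by edgeR's TMM method. The 4 bipolar cell markers summed to between 389 and 708 CPM and the 3 Müller glia markers to between 2417 and 7460 CPM over all libraries, so that retinal cell types were present in each. The deposited columns fall in 2 runs, of 31 and then 12 libraries, the second of which passes through the groups again with further replicate numbers. The labels do not say what the runs are. Both arms were present in both runs only in M3 and F14. In M7, M14, F3 and F7 the controls lay in the first run only. SCFA replicates 1 and 3 of M7 stood apart, with 15.3% and 16.6% of counts on mitochondrial genes. SCFA replicate 2 of F3 had 89287 CPM of lens markers (other libraries at most 267 CPM). Control replicate 2 of F7 held 784 counts of Y-linked genes, which the other female libraries lacked.

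Upstream regions of 3 genes are shown first, because *Egr4* and *Nr4a1* were lower with SCFA in every stratum and *Nr4a2* was not. Each is the 250 bases before the gene's start in RefSeq (GRCm38.p6), written 5′ to 3′ on the gene's strand. Capitals mark TGACG, the core of a cAMP response element, or CGTCA, its form on the other strand. *Egr4* lies at chr6:85513590-85513839 on the minus strand, *Nr4a1* at chr15:101266596-101266845 on the plus strand and *Nr4a2* at chr2:57124004-57124253 on the minus strand. No GENCODE exon overlaps these windows, and that of *Nr4a1* lies within an intron of the longest transcript of the gene.
Egr4: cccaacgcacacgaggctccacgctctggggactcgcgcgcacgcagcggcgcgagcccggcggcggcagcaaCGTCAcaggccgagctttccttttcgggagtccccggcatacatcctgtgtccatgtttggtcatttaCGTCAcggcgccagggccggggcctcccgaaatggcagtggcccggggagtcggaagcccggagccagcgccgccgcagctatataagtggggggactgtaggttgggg
Nr4a1: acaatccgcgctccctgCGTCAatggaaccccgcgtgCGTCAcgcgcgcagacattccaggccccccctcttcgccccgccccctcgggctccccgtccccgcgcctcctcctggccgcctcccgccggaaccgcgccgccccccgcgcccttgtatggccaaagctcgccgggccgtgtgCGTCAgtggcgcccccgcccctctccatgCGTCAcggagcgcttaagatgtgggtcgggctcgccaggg
Nr4a2: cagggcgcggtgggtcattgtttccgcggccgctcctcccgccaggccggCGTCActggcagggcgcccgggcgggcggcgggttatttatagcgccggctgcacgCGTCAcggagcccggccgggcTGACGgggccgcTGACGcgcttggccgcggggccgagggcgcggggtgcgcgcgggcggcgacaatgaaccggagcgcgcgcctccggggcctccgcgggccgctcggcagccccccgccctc

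The core motif occurred 2 times upstream of *Egr4*, at 177 and 109 bases before the start. *Nr4a1* held 4, the nearest 40 bases before the start. *Nr4a2* held 4 as well, between 200 and 111 bases before it. Entries were found for 6 of the 9 genes (*Egr2*, *Egr4*, *Nr4a1*, *Nr4a2*, *Nr4a3* and *Npas4*), with 10 upstream windows, 5 of them of *Egr2*. The core stood in 8 of these 10 windows, the others being of *Egr2*, against 17.8% of all 32851 windows of the same length. The *Egr2* windows that held it overlap and share the same sites, so the windows are not separate cases. By gene it stood in 6 of 6. The full element TGACGTCA was in 0 of the 6 (1.55% of all windows). The CArG box, the SRF motif, was found in *Egr2* alone, at 4 of its 5 starts (1.47% of all windows). Some of these starts lie so close that their windows overlap. The EGR motif GCGNGGGCG was found in *Nr4a1* and *Nr4a2* (4.70%), and the NR4A motif AAAGGTCA in 0 of the 6 (1.34%). Both strands were searched, and a full element also holds the core. *Nr4a2* held the core as *Egr4* and *Nr4a1* did, and the part of these motifs in the levels of the genes was not tested.

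*Egr1* and *Nr4a1* were the most abundant. In controls *Egr1* averaged 21.9 ± 9.72 CPM per kb of exon (SD, n = 19) and *Nr4a1* 17.5 ± 6.61, and these overlapped within their spread. *Egr4* (2.09 ± 1.04 CPM per kb), *Npas4* (1.95 ± 0.602) and *Nr4a2* (1.81 ± 0.296) followed and overlapped each other. *Nr4a3* (0.895 ± 0.477), *Arc* (0.765 ± 0.211) and *Egr3* (0.584 ± 0.265) overlapped in turn. *Egr2*, known in Schwann cells as a driver of myelination, was at or below the floor in 20 of the 43 libraries and never exceeded 12 counts, at 0.0949 ± 0.0580 CPM per kb. With SCFA the order was another one. *Nr4a1* came first (7.42 ± 1.52 CPM per kb, n = 24), then *Egr1* (6.67 ± 2.57), *Nr4a2* (2.07 ± 0.755), *Npas4* (1.16 ± 0.428) and *Egr4* (0.591 ± 0.337). *Arc* (0.549 ± 0.227), *Nr4a3* (0.483 ± 0.291) and *Egr3* (0.402 ± 0.225) came next and overlapped *Egr4*. Within a library, where scaling cancels, *Egr1* exceeded *Nr4a1* per kb in 14 of 19 control and in 8 of 24 SCFA libraries, and *Egr4* exceeded *Nr4a2* in 14 of 19 and in 0 of 24.

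*Egr1*, *Nr4a1*, *Egr4* and *Npas4* were lower with SCFA in all 6 strata and in all 8 pairings of arms within a stratum and run. In M7 *Egr1* (chr18:34859823-34864984 on GRCm38, plus strand) read 159, 104 and 119 CPM in control replicates 1 to 3. It read 33.9, 18.4, 15.4, 37.6 and 15.3 CPM in SCFA replicates 1 to 5. All 5 SCFA libraries lay below all controls, and the log2 fold change was -2.41 ± 0.42 (SE), or 5.31-fold lower. Here, as in all comparisons of whole retina, fewer cells of a type and less RNA per cell cannot be told apart. In M14 controls held 102, 102 and 112 CPM and SCFA libraries 30.6, 16.6 and 55.5 CPM (log2 fold change -1.62 ± 0.47). In F3 controls held 112, 92.0 and 134 CPM, and SCFA libraries 29.2, 30.7, 25.8, 30.6 and 39.4 CPM (-1.86 ± 0.42). The arms did not overlap in these strata.

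The libraries of F7, M3 and F14 were less even. In F7 controls held 111, 128 and 41.2 CPM of *Egr1* and SCFA libraries 21.4, 35.1, 28.3 and 24.5 CPM (-1.78 ± 0.44). Control replicate 3 was the low one here, though still above all SCFA libraries. In M3 the controls split by run, at 81.9 and 63.8 CPM in the first and 37.6 and 32.4 CPM in the second. The M3 SCFA libraries held 28.4 CPM in the first run and 33.5 and 14.1 CPM in the second, so that the second-run arms overlapped (mean 35.0 against 23.8 CPM). In F14 controls held 106, 27.8 and 196 CPM, so that replicate 2 was the lowest of all controls and replicate 3 the highest of all libraries. SCFA libraries of F14 held 19.3, 39.5, 35.2 and 59.2 CPM (-1.52 ± 0.44), overlapping the controls. Without control replicate 3 of F14 the log2 fold change of *Egr1* was -0.78 ± 0.45, and without replicate 2 it was -1.96 ± 0.41.

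**Figure D1:**
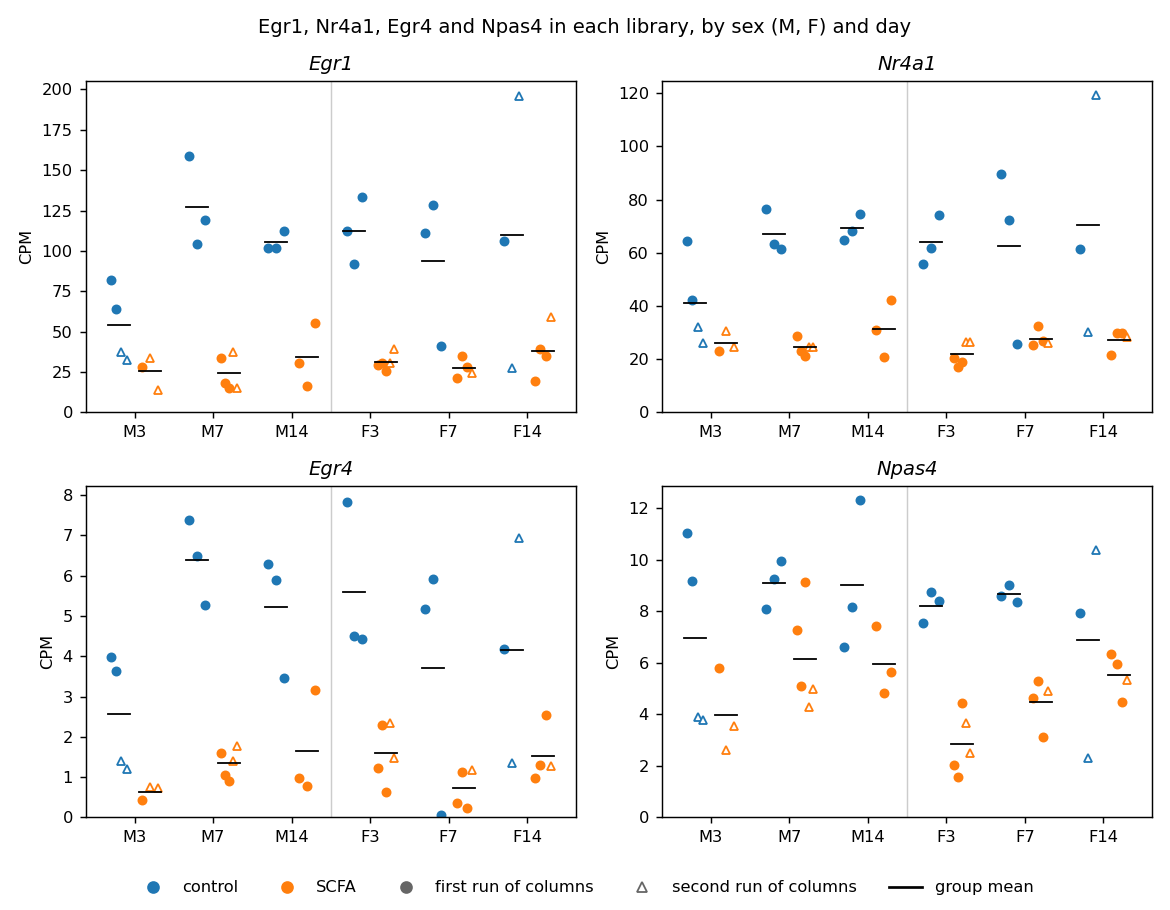
CPM (TMM scale) of *Egr1*, *Nr4a1*, *Egr4* and *Npas4* in each of 43 libraries by stratum (M or F and day), with controls in blue, SCFA in orange, first-run libraries as filled circles, second-run libraries as open triangles and group means as black lines. Control libraries of *Egr1* ran from 27.8 to 196 CPM and SCFA libraries from 14.1 to 59.2 CPM, with 4 controls (M3 replicates 3 and 4, F7 replicate 3 and F14 replicate 2) inside the SCFA range.

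*Nr4a1* (chr15:101254269-101274795, plus strand), also known as Nur77, had the narrowest SCFA range relative to its level, from 17.0 to 42.5 CPM, while controls ran from 25.9 to 119 CPM. All 24 SCFA libraries lay below the control median of 63.2 CPM. In M7 controls held 76.6, 63.2 and 61.3 CPM and SCFA libraries 28.9, 23.2, 21.1, 24.6 and 24.7 CPM (log2 fold change -1.46 ± 0.30). In F3 controls held 56.0, 61.9 and 74.2 CPM and SCFA libraries 20.5, 17.0, 19.0, 26.4 and 26.6 CPM (-1.55 ± 0.30). In F14 controls held 61.3, 30.3 and 119 CPM and SCFA libraries 21.5, 29.8, 29.8 and 28.4 CPM (-1.35 ± 0.32, and -0.75 ± 0.31 without control replicate 3). The arms did not overlap in these strata, nor in M14 (-1.14 ± 0.33). They overlapped in F7 (-1.18 ± 0.31), where control replicate 3 held 25.9 CPM against 89.8 and 72.5 CPM in the other controls. They also overlapped in M3 (-0.66 ± 0.32), where the second-run means were 29.1 CPM in controls and 27.8 CPM with SCFA.

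*Egr4* (chr6:85511121-85513589, minus strand) was low in abundance and large in relative difference. Its group means were between 2.56 and 6.39 CPM in controls and between 0.633 and 1.64 CPM with SCFA, and the folds were between 2.71 and 5.18. In F7 controls held 5.17, 5.92 and 0.0665 CPM, the last being 1 count, and SCFA libraries 0.370, 1.12, 0.244 and 1.17 CPM. Control replicate 3, the same library that was low for *Egr1* and *Nr4a1*, was there below all SCFA libraries, and without it the log2 fold change moved from -2.37 ± 0.65 to -2.93 ± 0.56. The arms did not overlap in M3, M7, M14 and F3. In M14 the log2 fold change of -1.66 ± 0.65 was -2.56 without SCFA replicate 3. *Npas4* (chr19:4984355-4990316, minus strand) differed less in size, with log2 fold changes from -1.32 ± 0.34 in F3 to -0.42 ± 0.32 in M7. In F3 controls held 7.53, 8.74 and 8.39 CPM of *Npas4* and SCFA libraries 2.05, 1.56, 4.43, 3.66 and 2.50 CPM. In F7 they held 8.59, 9.03 and 8.38 CPM against 4.65, 5.29, 3.11 and 4.92 CPM. F3 and F7 were the strata without overlap, and control replicate 3 of F7 was not low for this gene. In F14 the value of *Npas4* rested on control replicate 3, since the log2 fold change was -0.49 ± 0.34 with it and 0.09 ± 0.36 without it.

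*Nr4a3* (chr4:48045153-48086447, plus strand) was below controls in all 6 strata by the fitted value, but the size varied widely. In F7 controls held 9.31, 6.44 and 1.26 CPM and SCFA libraries 1.06, 0.562, 1.04 and 1.29 CPM (log2 fold change -2.40 ± 0.52). In M7 controls held 7.12, 4.29 and 3.99 CPM and SCFA libraries 4.29, 5.21, 4.22, 2.95 and 4.94 CPM (-0.06 ± 0.46). The arms did not overlap in M3 and M14, and in M7 the difference was within its error. In F14 the log2 fold change of -0.85 ± 0.49 became 0.19 ± 0.48 without control replicate 3 and 0.18 ± 0.59 with the first run alone.

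*Nr4a2* (chr2:57106830-57124003, minus strand), needed for dopaminergic neurons in the midbrain, was the member that did not share the direction of the others. In M7 controls held 8.43, 6.55 and 7.29 CPM and SCFA libraries 15.0, 6.90, 16.1, 7.12 and 7.46 CPM, a log2 fold change of 0.61 ± 0.24. The high pair were replicates 1 and 3, the libraries with the high mitochondrial share, and without them it was 0.10 ± 0.24. In F3 controls held 6.85, 6.80 and 6.87 CPM, and SCFA libraries 9.28, 9.91 and 9.94 CPM in the first run and 5.31 and 7.33 CPM in the second (0.41 ± 0.24). The first-run SCFA libraries were thus above the controls and the second-run ones on both sides of them. The log2 fold change was 0.43 ± 0.26 in M14, -0.23 ± 0.25 in M3, -0.03 ± 0.25 in F7 and -0.20 ± 0.25 in F14. *Egr3* (chr14:70077203-70082614, plus strand) was lower in 5 strata, from -0.47 ± 0.43 in F3 to -1.08 ± 0.43 in F14, and close to 0 in M7 (0.13 ± 0.40), with overlapping arms in all. For *Egr3* it was -0.42 ± 0.44 in F14 without control replicate 3, and in F7 it went from -0.88 ± 0.45 to -0.28 without control replicate 2. *Arc* (chr15:74669083-74672570, minus strand) was lower in M7 (-1.15 ± 0.36) and F7 (-1.10 ± 0.38), between -0.28 and -0.49 in M3, M14 and F3, and at 0.05 ± 0.37 in F14, with overlap in all strata. In M7 *Arc* was lowest in SCFA replicates 1 and 3 (0.704 and 0.692 CPM, other SCFA libraries 1.34 to 2.67 CPM), and without these the log2 fold change was -0.73 ± 0.39. *Egr2* (chr10:67535475-67542188, plus strand) ranged from -1.84 ± 0.95 in F14 to 1.50 ± 0.98 in M14 at counts near the floor, and moved by over 1.5 times without 1 library in M14, F3 and F7.

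**Figure D2:**
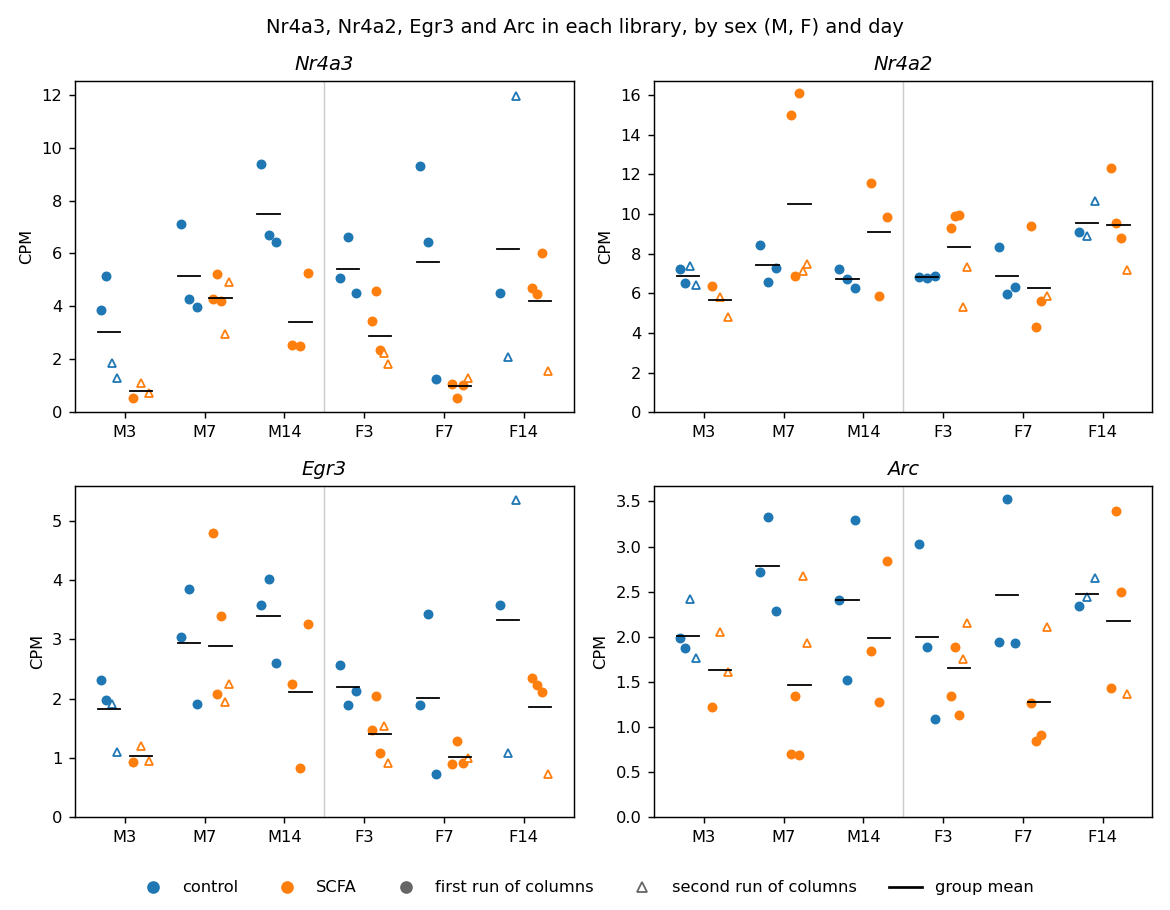
CPM (TMM scale) of *Nr4a3*, *Nr4a2*, *Egr3* and *Arc* in each of 43 libraries by stratum, with the same colours and symbols as for *Egr1*. The arms of *Egr3* and *Arc* overlapped in all 6 strata, and *Nr4a2* reached 15.0 and 16.1 CPM in SCFA replicates 1 and 3 of M7.

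The members without overlap and lower with SCFA numbered 3 in M3 (3.79% of all tested genes were so), 3 in M7 (8.63%), 4 in M14 (17.8%), 4 in F3 (3.91%), 2 in F7 (3.30%) and 1 in F14 (1.91%). In the other direction 0 members stood without overlap, where the share of all genes was 4.78% in M3, 9.17% in M7, 15.7% in M14, 3.82% in F3, 3.92% in F7 and 2.09% in F14. The median log2 fold change of the members was between -1.15 (M7) and -0.68 (M14), and that of all tested genes between -0.02 and 0.01. Since these values chose the members, they measure the choice. *Nr4a2* in M3 was among the members without overlap, at 6.40 against 6.44 CPM for the nearest libraries.

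**Figure D3:**
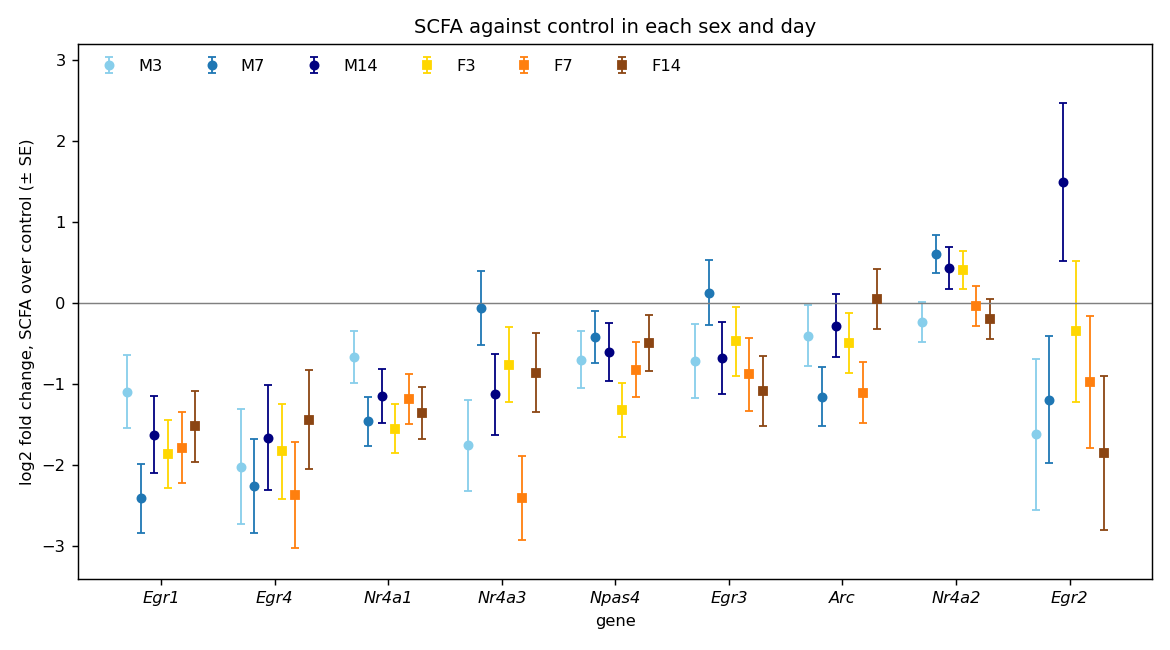
Log2 fold change of SCFA over control (± SE, edgeR fit to all libraries with a term for the run of columns) for the 9 genes in each stratum, males as circles and females as squares. *Egr1*, *Egr4*, *Nr4a1*, *Nr4a3* and *Npas4* lie below 0 in all 6 strata, *Nr4a2* on both sides of 0, and *Egr2*, with few counts, has the widest errors.

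Cell marker lists stood apart between the arms in M7 and M14, among others. The 5 pigment epithelium markers summed to 76.7 to 106 CPM in M7 controls and to 28.0 to 69.7 CPM in M7 SCFA libraries, and to 44.6 to 74.0 against 23.3 to 39.7 CPM in M14. The 3 Müller glia markers summed to 2417 to 3124 CPM in M7 controls and to 3494 to 7460 CPM with SCFA, but to 3449 to 3529 against 3110 to 3403 CPM in M14. The 3 amacrine markers were lower with SCFA in M14 (271 to 303 against 320 to 362 CPM) and overlapped elsewhere. The 4 ganglion cell markers were lower there as well (668 to 831 against 892 to 1116 CPM). None of the genes in these 4 lists was at 0 in all libraries of any group. In F3 and F7 each of these 4 lists overlapped between the arms. The part of these lists in the levels of *Egr1* and the others was not tested.

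The choice compared the arms within each sex, day and run of columns. Differences between days, between sexes and between runs were not compared in it, and were tested for each member on the same libraries. Day 7 was compared with day 3, and day 14 with day 7, with equal weight on the sexes and arms. No member passed the threshold between days, at edgeR's adjusted p of 0.819 or more for day 7 against 3 (0.00550% of all genes called) and 0.392 or more for day 14 against 7 (0.0604%). By edgeR's unadjusted p under 0.05, 1 member passed in each of these comparisons, *Npas4* and *Nr4a3*. Of the 18197 tested genes, 1096 and 1870 passed there. All 9 log2 fold changes were above 0 for day 7 against 3, from 0.06 ± 0.12 for *Nr4a2* to 0.35 ± 0.17 for *Npas4*, and 8 were above 0 for day 14 against 7. *Egr1* averaged 55.8 CPM at 3, 68.1 CPM at 7 and 72.0 CPM at 14 dpl over the groups, with a log2 fold change of 0.18 ± 0.22 and then 0.24 ± 0.22. *Nr4a3* averaged 3.03, 4.03 and 5.32 CPM, and its second step (0.63 ± 0.24) was the largest of the 9, with a 95% interval of 0.16 to 1.10 before adjustment (edgeR's adjusted p = 0.392). For *Nr4a1* the intervals of the 2 steps were -0.08 to 0.54 and -0.17 to 0.44.

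No member passed the threshold between males and females (edgeR's adjusted p of 0.499 or more), where 2.31% of all genes were called. Under edgeR's unadjusted p of 0.05 were 0 of 9 members and 2907 of the 18197 tested genes. *Egr1* averaged 61.7 CPM in males and 68.8 CPM in females (log2 fold change -0.22 ± 0.18, interval -0.57 to 0.13). *Nr4a1* averaged 43.3 and 45.7 CPM (-0.05 ± 0.13, interval -0.30 to 0.20). *Egr3* had the highest male value (0.25 ± 0.17). These are averages over both arms and 3 days, and they say nothing of a sex difference in the response to SCFA.

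Of the 9 members, 3 differed between the runs of columns, a comparison that took 52.0% of all genes past the threshold. *Nr4a2* was lower in the second run (-0.37 ± 0.13, edgeR's adjusted p = 0.0195), *Npas4* as well (-0.44 ± 0.18, edgeR's adjusted p = 0.0446), and *Arc* was higher (0.46 ± 0.20, edgeR's adjusted p = 0.0551). *Egr1* (0.02 ± 0.23), *Nr4a1* (0.01 ± 0.17) and *Egr4* (0.02 ± 0.34) had values within their error of 0. Mitochondrial genes held 5.19% to 16.6% of counts in the first run and 2.65% to 4.87% in the second, and their part in these differences was not tested. Without SCFA replicates 1 and 3 of M7 edgeR's adjusted p was 0.126 for *Nr4a2*, 0.118 for *Npas4* and 0.188 for *Arc*. The log2 fold changes were then -0.22 ± 0.12, -0.37 ± 0.19 and 0.32 ± 0.20. Without control replicate 3 of F14 the members called numbered 5.

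**Figure D4:**
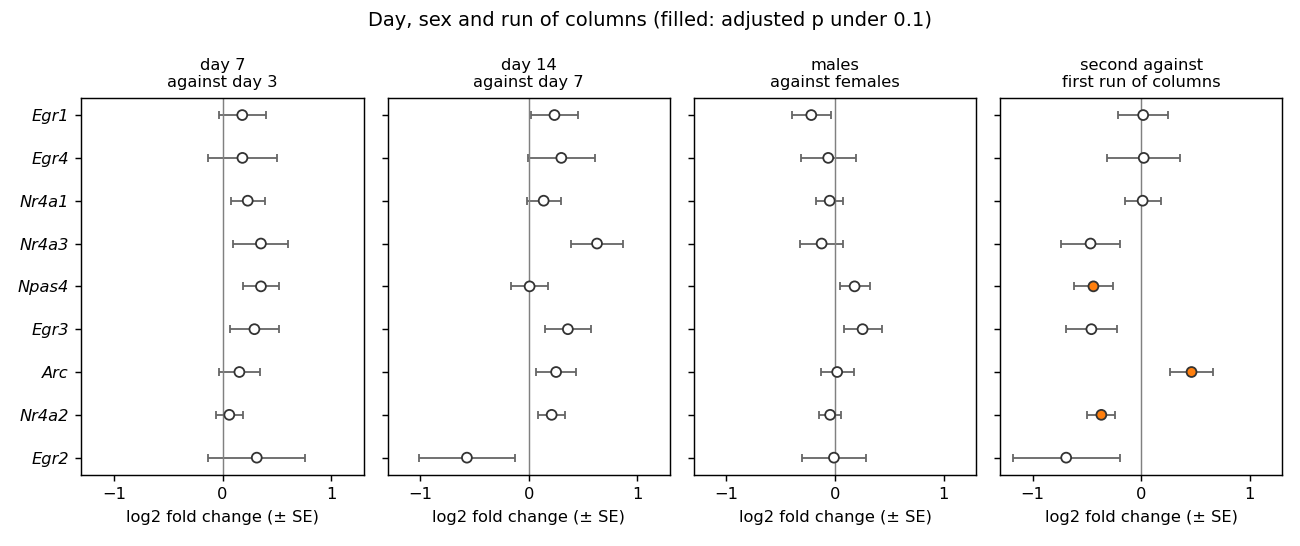
Log2 fold change (± SE, edgeR) of the 9 genes for day 7 against 3, day 14 against 7, males against females and second against first run of columns, with filled points at an adjusted p under 0.1. The filled points are *Npas4*, *Arc* and *Nr4a2* in the run comparison, and none is filled for day or sex.

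Members also varied together within groups. On log2(CPM + 1), after removal of group means and run, *Egr1* and *Nr4a1* had Pearson's r = 0.85 across the libraries (n = 43), *Egr4* and *Nr4a1* 0.80, *Egr4* and *Nr4a3* 0.79, and *Egr3* and *Egr4* 0.74. Of 36 pairs, 10 had r over 0.5. Over all libraries *Nr4a2* had r between -0.12 and 0.33 to the other 8, and *Arc* between -0.12 and 0.37. Within controls, however, r of *Nr4a2* was 0.62 with *Nr4a3* and 0.57 with *Nr4a1*, and within SCFA libraries r of *Arc* was 0.62 with *Nr4a3*. These are descriptions over libraries that share depth, dissection and pooling. Over all strata and runs, so not within groups, the SD in CPM per kb was wider in controls for *Egr1* (9.72 against 2.57 with SCFA). For *Nr4a1* it was 6.61 against 1.52. The means were higher in controls too, at 21.9 against 6.67 for *Egr1* and 17.5 against 7.42 for *Nr4a1*. These SDs therefore do not compare the relative spread. The SD was wider with SCFA for *Nr4a2* (0.755 against 0.296 in controls) and nearly the same for *Arc* (0.227 against 0.211). For *Egr1* and *Nr4a1* r was 0.94 in the 19 control and 0.71 in the 24 SCFA libraries, while for *Nr4a1* and *Nr4a3* it was 0.89 and 0.14. Without the 3 controls of F14, which had the widest range, r of *Egr1* and *Nr4a1* was 0.79.

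**Figure D5:**
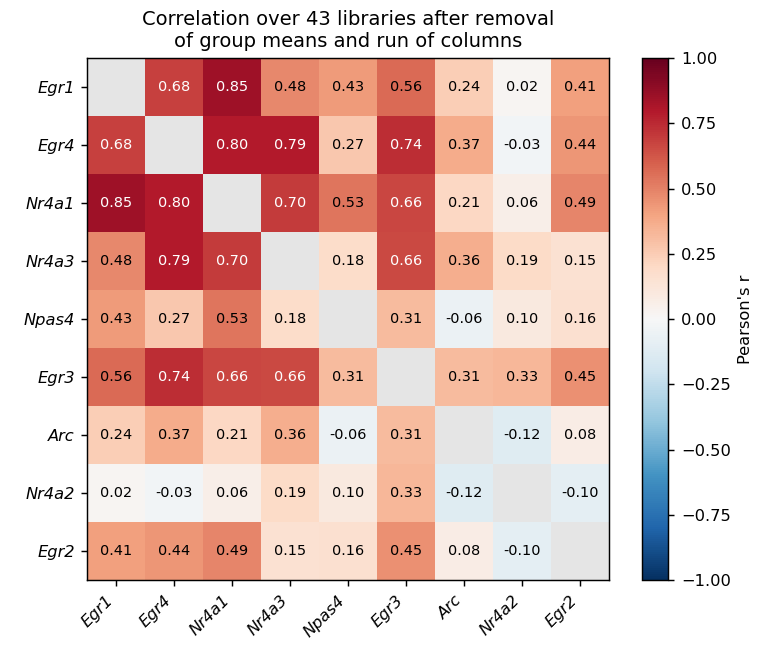
Pearson's r for each pair of the 9 genes over 43 libraries, on log2(CPM + 1) after removal of group means and run, from blue (-1) to red (1). *Egr1*, *Egr3*, *Egr4*, *Nr4a1* and *Nr4a3* form the red block, with r from 0.48 to 0.85, while *Nr4a2* and *Arc* have no r above 0.37.

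Outside the 9, and among genes with an established name, those most like *Egr1* were *Fos* (r = 0.83), *Junb* (0.68), *Dusp1* (0.66), *Ier2* (0.64) and *Snhg5* (0.62). Those most like *Nr4a1* were *Fos* (0.86), *Junb* (0.83), *Sik1* (0.78), *Ier2* (0.77) and *Per1* (0.77). Without the F14 controls r ran from 0.45 (*Ier2*) to 0.75 (*Fos*) for *Egr1* and from 0.66 (*Ier2*) to 0.79 (*Fos*) for *Nr4a1*. *Fos* and *Junb* encode AP-1 subunits, *Dusp1* a MAP kinase phosphatase, *Sik1* a salt-inducible kinase and *Per1* a clock component. In SCFA libraries alone *Egr1* had r of 0.63 with *Fos*, 0.25 with *Junb* and 0.09 with *Ier2*. In controls alone these were 0.96, 0.92 and 0.93.

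The wider pathway was followed in 5 lists of 60 tested genes, none of them members, which were tested for SCFA against control. This is the contrast that chose the members, on the same libraries, and the lists were drawn with earlier results known. *Ier2* and *Sik1* were also among the genes most like *Nr4a1* above. The calls are therefore not support that is independent of the choice. Of 8 other early response genes, 5 had log2 fold changes below 0 in all 6 strata, a pattern that 7.94% of all tested genes had. They were *Ier2*, *Sik1*, *Maff*, *Csrnp1* and *Zfp36*, named after their values were seen. *Csrnp1* fell in M14 (3.11 against 7.62 CPM, -1.29 ± 0.32, edgeR's adjusted p = 0.036) and in F7 (2.18 against 5.81 CPM, -1.38 ± 0.30, edgeR's adjusted p = 0.0924). *Ier2* fell in M7 (28.2 against 46.8 CPM, -0.62 ± 0.16, edgeR's adjusted p = 0.00914) and in M14 (-0.65 ± 0.18, edgeR's adjusted p = 0.0525). *Sik1* fell in F7 (7.28 against 18.0 CPM, -1.33 ± 0.33, edgeR's adjusted p = 0.0924). The list had 1 gene called higher and 3 lower in M7 (22.2% of all genes called), 0 and 5 in M14 (7.13%), 0 and 0 in F3 (8.11%), and 0 and 2 in F7 (0.643%). No gene of it was called in M3 (0.0220%) or F14 (0% of all genes by edgeR, with 529 at an unadjusted p under 0.05). Its median log2 fold change was between -0.60 in M14 and -0.26 in M3.

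The regulators upstream of the members were called in both directions. Of 28 kinases, phosphatases and factors, 9 rose and 5 fell in M7 (22.2% of all genes called). In M14 3 rose (7.13%) and in F3 2 rose (8.11%). None was called in M3 (0.0220%), F7 (0.643%) or F14 (0%). Below 0 in all 6 strata were 6 of the 28, where 7.94% of all tested genes were so. They were *Srf*, *Mrtfa*, *Crtc1*, *Crtc2*, *Mef2d* and *Rps6ka2*, named after their values were seen. In M7 *Ppp3ca*, the catalytic subunit of calcineurin, rose from 200 to 438 CPM (1.36 ± 0.24, edgeR's adjusted p = 0.00035). *Mrtfb* rose (0.68 ± 0.13, edgeR's adjusted p = 0.00087) while *Mrtfa* fell (-0.45 ± 0.10, edgeR's adjusted p = 0.0022). Both encode actin-sensitive cofactors of SRF. *Ppp3ca* and *Rps6ka5*, the kinase MSK1, also rose in F3 (0.70 ± 0.24 and 0.46 ± 0.15, edgeR's adjusted p = 0.0786 and 0.0686). In M14 *Mef2c* (0.52 ± 0.16) and *Atf1* (0.48 ± 0.15) rose, each at edgeR's adjusted p of 0.072. *Ppp3ca* was also the pathway gene with the smallest p among those lower in the second run (-0.95 ± 0.13, edgeR's adjusted p = 3.8e-07), the run that holds 2 of the 5 SCFA libraries and no control of M7.

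Of the 7 partners and corepressors, *Rxrb*, a nuclear receptor partner, fell in M7 (61.5 against 83.3 CPM, -0.46 ± 0.12, edgeR's adjusted p = 0.0084) and F7 (54.3 against 77.3 CPM, -0.52 ± 0.12, edgeR's adjusted p = 0.0924). *Rxrb* was also called lower in M14 (-0.43). The corepressors *Nab1* and *Nab2* had values on both sides of 0 over the strata, and *Nab1* was called higher in M7 (0.47). The list thus had 1 gene called higher and 1 lower in M7 (22.2% of all genes called). It had 0 and 1 in M14 (7.13%), 0 and 1 in F7 (0.643%), and none in M3 (0.0220%), F3 (8.11%) or F14 (0%). Of the 13 activity-regulated effectors 5 rose and 2 fell in M7 (22.2% of all genes called), 2 fell in M14 (7.13%) and 1 rose in F3 (8.11%). *Rgs2*, which speeds G protein shut-off, rose in M7 (0.88 ± 0.17, edgeR's adjusted p = 0.00063) and F3 (0.55 ± 0.17, edgeR's adjusted p = 0.0542). *Plk2* fell in M14 (-0.77 ± 0.22, edgeR's adjusted p = 0.0531). None of the 13 was below 0 in all 6 strata (7.94% of all tested genes were). Of 4 genes of dopamine synthesis and transport 1 rose in M7 (22.2% of all genes called) and 1 in M14 (7.13%). In M14 this was *Slc18a2*, the vesicular monoamine transporter (7.62 to 12.4 CPM, 0.71 ± 0.20, edgeR's adjusted p = 0.0536). *Slc18a2* was also lower in males than in females (-0.29 ± 0.08, edgeR's adjusted p = 0.0618), as was *Homer1* (-0.21 ± 0.06, edgeR's adjusted p = 0.0916). No gene of the 5 lists was called between days.

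Many of these calls rested on single libraries or pairs of them, and calls among all tested genes shifted as well. With 1 library left out, the 1298 of all tested genes called in M14 became 0 to 2129. The 1476 in F3 became 11 to 2410, the 117 in F7 0 to 2051 and the 4047 in M7 2161 to 4858. The shifts below are therefore not particular to the pathway genes. Without SCFA replicates 1 and 3 of M7 the pathway genes called there numbered 4 in place of 28, namely *Ppp3ca* (log2 fold change 0.73 ± 0.21), *Rgs2* (0.58 ± 0.17), *Mrtfb* (0.45 ± 0.14) and *Slc18a2* (0.69 ± 0.21). In M14 the 12 calls fell to 0 without SCFA replicate 1 or 3 or control replicate 1 or 2, and to 5 without control replicate 3. In F3 the 3 calls fell to 0 without SCFA replicate 2 (the library with lens markers), SCFA replicate 3 or control replicate 3, and to 1 without control replicate 2. They rose to between 5 and 8 without SCFA replicate 4 of F3, SCFA replicate 3 or control replicate 2 of F7, SCFA replicate 2 of M7, control replicate 1 of M3 or control replicate 2 of F14. In F7 the 3 calls fell to 0 without any of 26 of the 43 libraries, control replicate 2 among them, and rose to 18 without control replicate 3.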

How the data were processed

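Retinal RNA was sequenced as 43 libraries. The authors deposited raw counts per gene without normalization. Per the labels the build was mm10 and DESeq2 was among the tools, while the aligner, annotation, strand setting and versions are not given in the sources used here. Genes were named and located by GENCODE M21 (GRCm38), which holds 54495 of the 54532 identifiers. Groups were taken from the sample titles, since the treatment field reads control for all samples.

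Low counts were removed by filterByExpr, totals scaled by TMM, and all 12 groups fitted together with a term for the run of columns by the quasi-likelihood test of edgeR 4.0.16 (R 4.3.3), with Benjamini-Hochberg adjustment and a threshold of 0.1. The SE was the log2 fold change divided by the square root of F. P-values measure the spread between pools of 2 retinas. Floors cover counting error only. The test was checked on simulated counts that held no run effect and no outlying library, unlike these data. Changed genes were drawn only from those with a mean over 2 CPM. Its recovery therefore does not cover *Egr2* (mean 0.243 CPM) and *Arc* (1.97 CPM). In M7 it recovered 91% of genes changed 2-fold and 100% of those changed 4-fold, with 26 false calls. In F14 these were 86%, 99% and 17. Levels between genes used CPM per kb of exon. Members and lists were chosen with earlier results of these data known. Of the lists, at most 3 called genes per direction with the smallest adjusted p were named, and besides these *Nab1* in M7 and *Rxrb* in M14. Likeness was ranked by Pearson's r among tested genes with an established name, clone names left out. Alternatives included DESeq2 1.42.0, RLE size factors, other filters and thresholds, fewer libraries and a replicate block. A result of 1 marker list is not reported here.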

Additional observations from a re-analysis of the deposited data

Results flagged for a closer look

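Within groups of 4 or 5 libraries, 45 combinations of gene and group were examined for a library far from the rest, and chance alone marks about 1 in 20 of them. Among these, 2 were marked, both in the SCFA group of F14. *Egr3* was 0.737 CPM in replicate 4, the only second-run library of that group, against 2.11 to 2.35 CPM in the other 3. *Nr4a1* was 21.5 CPM in replicate 1 against 28.4 to 29.8 CPM in the others.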

How the results depend on the processing

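Counts are of called genes, members for day, sex and run and pathway genes for SCFA. Calls among all genes tested varied too. Over the alternatives, fits with 1 library left out not counted, they numbered 582 to 4488 in M7, 195 to 3952 in M14 and 91 to 3260 in F3. In F7 they were 0 to 801, in F14 0 to 2962 and in M3 0 to 296. They were 873 to 9900 for the run, 13 to 1365 for sex and 0 to 498 for day 14 against 7. Leaving out 1 library at a time gave 19 to 30 pathway genes in M7, 0 to 18 in M14, 0 to 8 in F3, 0 to 18 in F7 and 0 to 1 in F14, and 2 to 5 members for the run. DESeq2 called 1 in M3, 5 in F3 and 8 in F7. Without a filter on low counts the numbers were 2 in M3, 5 in F3, 8 in F7, 1 in F14, 2 members for day 14 against 7, 1 for sex and 5 for the run. A minimum of 10 counts in every library gave 7 in F7. An adjusted p under 0.05 left 1 in M14, 0 in F3 and 0 in F7. A log2 fold change over 1 in size left 2 in M7, 3 in M14, 0 in F3 and 0 members for the run. Without the run term 1 remained in M14, 0 in F3 and 0 in F7. The first run alone gave 5 in M14, 13 in F3 and 6 in F7. The libraries the study lists gave 17 in M7, 29 in M14, 0 in F7 and 12 in F14. Without control replicate 2 of F7 there were 6 in F3 and 0 in F7. Without SCFA replicates 1 and 3 of M7, an alternative chosen after seeing the data, 4 were left in M7 and 0 members for the run. The cause of these shifts was not tested.

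Replicate numbers do not pair the libraries, since 6 of 18 same-number pairs had a correlation of deviations over 0.1 (mean 0.0244). With replicate number as a block the counts were 7 in F3, 5 in F7 and 1 member for the run. The log2 fold change between runs then took the other sign for *Egr1* (-0.24), *Egr3* (0.12), *Egr4* (-0.020), *Nr4a2* (0.14) and *Nr4a3* (0.17). All libraries with replicate number 4 or 5 lay in the second run, so this block overlaps with the run and that fit separates them poorly.

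The other changes of sign for day, sex and run were in values within their error of 0. With the first run alone they were *Arc* for day 7 against 3 (-0.028), *Npas4* for day 14 against 7 (-0.0042), and *Egr2* (0.052), *Nr4a1* (0.045) and *Arc* (-0.089) for sex. Without the run term *Npas4* was -0.024 for day 14 against 7. Without control replicate 2 of F7 *Egr2* was 0.054 and *Egr4* 0.020 for sex. Without the M7 pair *Nr4a2* was -0.019 for day 7 against 3 and *Egr4* -0.00080 for the run. With 1 library left out, values ran from -0.018 to 0.23 for *Nr4a1* and -0.14 to 0.10 for *Npas4* at day 14 against 7. For sex they ran from -0.16 to 0.20 for *Egr2*, -0.21 to 0.038 for *Egr4*, -0.11 to 0.057 for *Nr4a1*, -0.20 to 0.068 for *Nr4a3* and -0.036 to 0.092 for *Arc*. For the run they ran from -0.13 to 0.093 for *Egr1*, -0.12 to 0.15 for *Egr4* and -0.10 to 0.096 for *Nr4a1*. Of 505 SCFA values of members under the other alternatives, fits with 1 library left out not counted, 13 changed sign. None of them was in *Egr1*, *Egr4*, *Nr4a1* or *Npas4*. With 1 library left out, *Npas4* in F14 did change sign, from -0.49 to 0.09 without control replicate 3. Of the 13, those beyond their error were *Nr4a2* in M7, from 0.61 to -0.04 with the libraries the study lists, and *Nr4a3* in F14, from -0.85 to 0.18 with the first run alone. *Egr2*, at 12 counts or fewer, is the member whose depth limits it most.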
